A study of Mus musculus with 8 samples.

Results

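The mouse genes Zp1, Zp2 and Zp3, which encode proteins of the zona pellucida, Gdf9 and Bmp15, which encode growth factors secreted by the oocyte, and Oosp1, which encodes an oocyte-secreted protein, were examined in RNA-Seq data from primordial follicles. These 6 genes were selected by symbol from the 26586 genes in the count table, and 4 of them (Zp1, Zp2, Zp3 and Gdf9) passed the filter on low counts. Follicles were isolated from enzyme-digested ovaries at postnatal day 3, and many follicles from an ovary were pooled for each RNA sample. The mitochondrial supplemented (mito-supplemented) group comprised 4 samples from the third generation of offspring that descended from founders. These founders came from oocytes that had received mitochondria of egg precursor cells together with the spermatozoon at intracytoplasmic sperm injection. The other group comprised 4 controls, and all 8 samples had the strain background C57Bl/6 x CBA. The comparison addressed whether follicle transcripts of mito-supplemented descendants differed from those of controls.

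The zona pellucida is the glycoprotein coat that a growing oocyte lays down around itself, and its proteins act in sperm binding and in the block to polyspermy. GDF9 and BMP15 are members of the transforming growth factor beta family that signal from the oocyte to the surrounding granulosa cells, through the receptor BMPR2 and SMAD proteins. The transcription factor FIGLA is required for primordial follicle formation and regulates the zona genes through E-boxes, and NOBOX and LHX8 are homeodomain factors of the early oocyte.

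Total counts were 17658559, 13917412, 18219362 and 10370045 in control replicates 1 to 4. In mito-supplemented replicates 1 to 4 they were 19760763, 13370911, 16116434 and 13276462. Rows for ribosomal RNA (Rnr1, Rnr2, Rn45s and Rn18s) took 75.3% of the counts in control replicate 4 and 20.2% to 45.6% in the other 7 libraries, so that control replicate 4 held 2559876 other counts. Levels are given as CPM, counts scaled to library size after TMM normalisation. A count of 0 allows a level of up to 0.592 CPM in control replicate 4 (3 counts) and of up to 0.123 to 0.238 CPM in the others. These limits, and the intervals on ratios of counts, cover counting error only, because amplified reads are not independent molecules. Control replicate 1 had the highest level of each of the 6 genes, and fold changes are therefore also given without it. It was the highest of the 8 libraries for 22.5% of the 13873 genes tested. The samples were labelled as biological replicates, but nothing in the labels states that they came from separate animals, and p values measure the spread between these samples. Their titles share codes, with 280 and 301 on 2 controls each and C56 on 3 mito-supplemented samples and C60 on 1, whose meaning is not given. With counts summed by code 0 genes were called, and the log2 fold changes were -2.24 for Zp1, -1.47 for Zp2, -1.83 for Zp3 and -0.84 for Gdf9.

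Promoter sequences from RefSeq (GRCm38.p6) were matched for 3 of the 6 genes, and those of Zp3 and Bmp15 are shown, the first because the zona genes are known targets of an E-box binding factor and the second as that of a growth factor gene. The 250 bases before the RefSeq start of each gene are written 5′ to 3′ on the strand of the gene, with each E-box (CANNTG, which reads the same on both strands) in capitals. The windows were chr5:135979855-135980104 (+) for Zp3 and chrX:6320725-6320974 (-) for Bmp15. Exons of GENCODE M21 took up the last 6 bases of the Zp3 window and 0 of the Bmp15 window, and 99 bases of the window of Oosp1, which is not shown.
Zp3: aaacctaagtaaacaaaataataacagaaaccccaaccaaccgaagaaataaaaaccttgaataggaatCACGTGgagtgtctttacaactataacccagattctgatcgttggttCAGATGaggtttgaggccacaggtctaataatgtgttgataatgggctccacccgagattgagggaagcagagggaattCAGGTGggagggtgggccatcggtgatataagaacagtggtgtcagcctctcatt
Bmp15: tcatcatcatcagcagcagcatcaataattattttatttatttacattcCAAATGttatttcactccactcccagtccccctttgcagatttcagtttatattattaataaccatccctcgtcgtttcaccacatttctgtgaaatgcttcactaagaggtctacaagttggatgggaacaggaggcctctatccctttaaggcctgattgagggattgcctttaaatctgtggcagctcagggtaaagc
The Zp3 window held 3 E-boxes, which began 181, 134 and 55 bases before the start, and the first of them was CACGTG. At least 3 E-boxes were found in 12.2% of the 32851 promoter windows of this length, and CACGTG, itself a form of the E-box, in 6.02%. The Oosp1 window held 5 E-boxes, a number reached or exceeded in 1.15% of windows, but 3 of the 5 lay in the part annotated as exon. The Bmp15 window held 1 E-box, as 66.2% of windows held at least 1. It also held the homeobox motif TAATTA 225 bases before the start and the motif TGATTG 45 bases before it. The homeobox motif, searched as TAATTG or TAATTA on both strands, occurred in 11.3% of windows, and TGATTG, also searched on both strands, in 12.7%.

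Zp2 (chromosome 7 of GRCm38, 120126772 to 120145291, minus strand, 18 exons), whose product takes part in sperm binding, had the highest counts of the 6 genes. Its level was 374, 17.1, 7.21 and 108 CPM in control replicates 1 to 4. It was 16.6, 25.0, 153 and 24.8 CPM in mito-supplemented replicates 1 to 4. Control replicate 1 was the highest library and control replicate 3 the lowest, so that the 4 mito-supplemented libraries lay inside the range of the controls. That range was 51.9-fold in controls and 9.20-fold in mito-supplemented samples. The mean was 126 ± 171 CPM in controls against 54.8 ± 65.4 CPM in the mito-supplemented group (SD, n = 4 each). The log2 fold change was -1.21 (95% interval -3.71 to 1.29), and the adjusted p was 0.777 (quasi-likelihood test of edgeR, Benjamini-Hochberg adjustment over all genes tested). Without control replicate 1 the log2 fold change was 0.36, and without mito-supplemented replicate 3 it was -2.47. In these bulk samples, fewer oocytes and less RNA per oocyte cannot be told apart.

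Zp3 (chromosome 5, 135980099 to 135988624, plus strand, 8 exons), which encodes a structural zona protein that pairs with ZP2 in the zona filaments, showed the same order of extremes. Its level was 99.8, 7.85, 0.572 and 36.5 CPM in controls. In mito-supplemented samples it was 1.17, 4.36, 35.4 and 5.22 CPM. The highest and lowest libraries were again control replicates 1 and 3, and the groups overlapped. The lowest level rested on 10 counts. The mean was 36.2 ± 45.2 CPM in controls against 11.5 ± 16.0 CPM in the mito-supplemented group (SD, n = 4 each). The log2 fold change was -1.65 (95% interval -4.55 to 1.26), and the adjusted p was 0.745 (quasi-likelihood test of edgeR, Benjamini-Hochberg adjustment). Without control replicate 1 it was -0.33, and without mito-supplemented replicate 3 -3.29.

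Zp1 (chromosome 19, 10914287 to 10920632, minus strand, 12 exons), whose product cross-links the zona filaments, was measured at 59.5, 4.12, 0.801 and 28.4 CPM in controls. Its level in mito-supplemented samples was 1.70, 5.13, 19.2 and 0.139 CPM. The last value, in mito-supplemented replicate 4, came from 2 counts, whereas Zp2 had 357 counts in the same library. The groups overlapped, and the highest library was control replicate 1. Mean levels of Zp1 were 23.2 ± 27.1 CPM in controls against 6.55 ± 8.71 CPM in the mito-supplemented group (SD, n = 4 each). The log2 fold change was -1.82 (95% interval -4.85 to 1.21), and the adjusted p was 0.736 (quasi-likelihood test of edgeR, Benjamini-Hochberg adjustment). Without control replicate 1 it was -0.71, and without mito-supplemented replicate 3 -3.28.

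**Figure D1:**
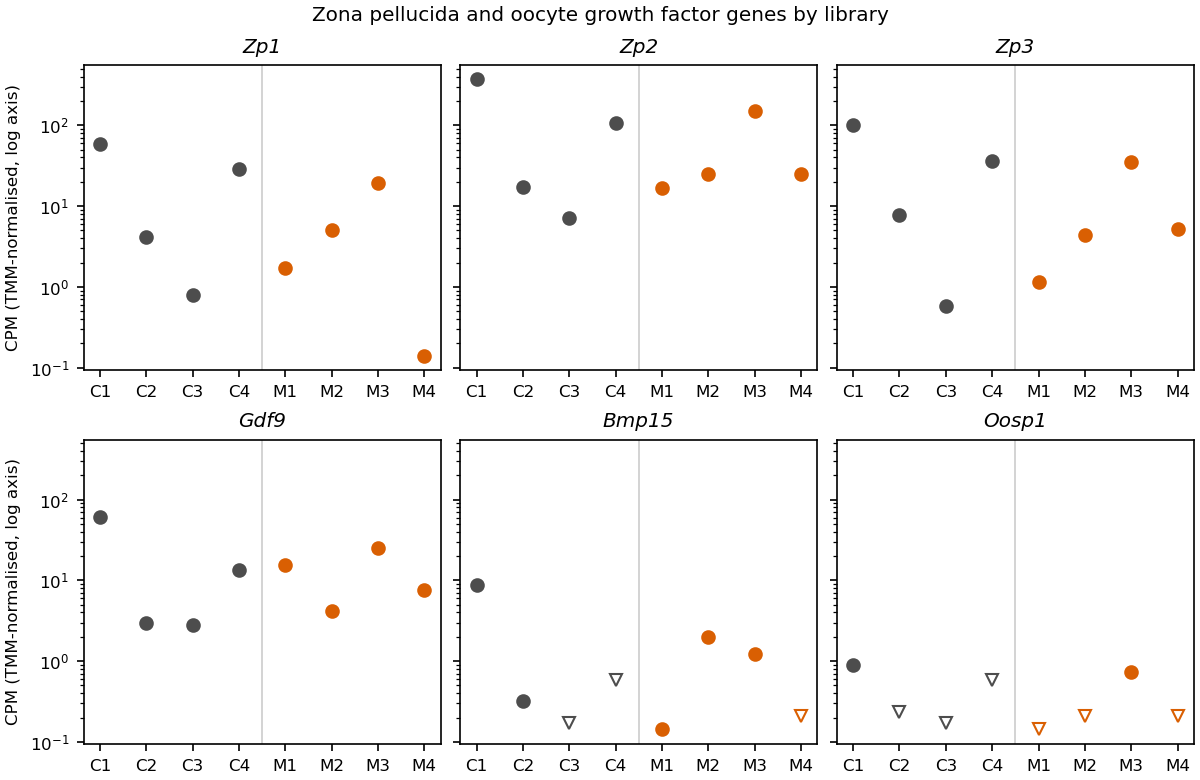
Level of each of the 6 genes in CPM on a log axis, by library (C1 to C4, control replicates, grey; M1 to M4, mito-supplemented replicates, orange), where open triangles mark a count of 0 and are drawn at the level of 3 counts. Control replicate 1 was the highest library for each gene, at 374 CPM for Zp2.

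The share of each gene within the summed zona counts differed between libraries. Zp2 made up 70.1%, 58.7%, 84.0% and 62.4% of the zona counts in controls and 85.3%, 72.5%, 73.6% and 82.3% in mito-supplemented samples. Zp3 made up 18.7%, 27.0%, 6.67% and 21.2% in controls and 5.99%, 12.7%, 17.1% and 17.3% in mito-supplemented samples. The low Zp3 shares were those of control replicate 3 and mito-supplemented replicate 1, so that 1 library of each group had them. Zp1 made up 8.73% to 16.5% in 7 libraries and 0.461% in mito-supplemented replicate 4. In that library there were 0.0056 Zp1 counts per Zp2 count (95% Clopper-Pearson interval 0.000676 to 0.0204), whereas the other 7 libraries had 0.102 to 0.264. The lowest bound among the intervals of those 7 libraries was 0.0591, in control replicate 3, above the whole interval of mito-supplemented replicate 4.

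Gdf9 (chromosome 11, 53431023 to 53437904, plus strand, 2 exons), the growth factor required for follicles to pass the primary stage, was detected in all 8 libraries. Its level was 60.02, 2.93, 2.80 and 13.4 CPM in controls. In mito-supplemented samples the level of Gdf9 was 15.7, 4.16, 25.1 and 7.58 CPM. Control replicate 1 was the highest library, control replicates 2 and 3 were the lowest, and the mito-supplemented libraries lay between them. The means were 19.8 ± 27.3 CPM in controls against 13.1 ± 9.33 CPM in the mito-supplemented group (SD, n = 4 each). The log2 fold change was -0.59 (95% interval -2.76 to 1.57), and the adjusted p was 0.863 (quasi-likelihood test of edgeR, Benjamini-Hochberg adjustment). Without control replicate 1 it was 1.09, as the mean of the remaining 3 controls was 6.39 CPM, and without mito-supplemented replicate 3 it was -1.08.

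Bmp15 (chromosome X, 6314107 to 6320721, minus strand, 2 exons), the paralogue of Gdf9, had too few counts to pass the filter. Its counts were 213, 4, 0 and 0 in controls, and 3, 29, 27 and 0 in the mito-supplemented group. These counts corresponded to 8.74 and 0.317 CPM in control replicates 1 and 2, and in mito-supplemented replicates 1 to 3 to 0.146, 2.01 and 1.23 CPM. The groups overlapped, and 3 of the 8 libraries had a count of 0. Bmp15 counts per Gdf9 count were 0.146 (95% Clopper-Pearson interval 0.125 to 0.168) in control replicate 1. The highest ratio, 0.483 (0.299 to 0.765), was that of mito-supplemented replicate 2. The ratio was 0.0488 (0.0319 to 0.0718) in mito-supplemented replicate 3 and 0.00929 (0.00191 to 0.0274) in replicate 1, which had 323 counts of Gdf9. With genes kept at 1 count in any sample, the log2 fold change of Bmp15 was -1.35, with an adjusted p of 0.811 in edgeR's quasi-likelihood test. The sign rested on control replicate 1, as the remaining 3 controls had a mean of 0.106 CPM against 0.845 CPM in the mito-supplemented group.

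Oosp1 (chromosome 19, 11667460 to 11691150, minus strand, 5 exons) was detected in 2 libraries, 1 in each group. There were 22 counts in control replicate 1, or 0.903 CPM, and 16 in mito-supplemented replicate 3, or 0.726 CPM. The other 6 libraries had 0 counts, which in control replicate 4 allows a level of up to 0.592 CPM. In the 2 libraries with counts Zp2 was at 374 and 153 CPM. With genes kept at 1 count in any sample, the log2 fold change of Oosp1 was -0.25, with an adjusted p of 0.976 in edgeR's quasi-likelihood test. Its direction without control replicate 1 was not tested, as the 0 counts of the other controls allow levels of up to 0.238, 0.172 and 0.592 CPM, against a mean of 0.182 CPM in the mito-supplemented group.

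Of the 4 members tested, 0 passed an adjusted p of 0.05 and a 2-fold difference in edgeR's quasi-likelihood test, beside 0 of all 13873 genes tested (0%), where the lowest adjusted p was 0.418. At an unadjusted p under 0.05 there were 0 of the 4 members and 1069 genes (7.71%). Groups did not overlap for 0 of the 4 members and 698 genes (5.03%). The likelihood ratio test of edgeR called 58 genes (0.418%) and DESeq2 141, and neither called a member. Exact permutation tests of log2 CPM over the 70 assignments of libraries to groups (two-sided) gave p from 0.40 for Zp1 to 0.857 for Gdf9, where the smallest possible p was 0.0286. A p above the threshold does not show that the levels were alike, as the 95% intervals reached log2 fold changes from -4.85 to 1.57. The spread between libraries was wide for the zona genes. The SD of log2 CPM over the 8 libraries was 2.65 for Zp1, 2.48 for Zp3, 1.93 for Zp2 and 1.55 for Gdf9, against a median of 0.985 over the genes tested. Zp1, Zp3, Zp2 and Gdf9 stood at percentiles 98.2, 97.3, 89 and 77.1 of that spread.

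**Figure D2:**
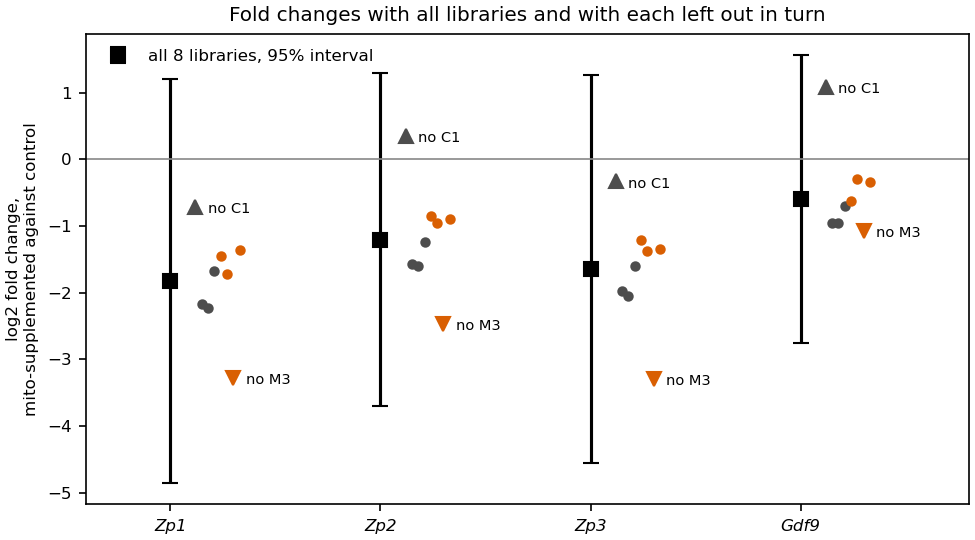
Log2 fold change of mito-supplemented against control samples for the 4 members tested, with all 8 libraries (squares, bars for the 95% interval) and with each library left out in turn (small points, coloured by the group of the library left out). Triangles mark the values with control replicate 1 or mito-supplemented replicate 3 left out, which for Gdf9 were 1.09 and -1.08.

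Levels of the genes were compared per kilobase of annotated exon (GENCODE M21), as CPM per kb. Zp2 had a median level of 9.14 CPM per kb over the 8 libraries, Gdf9 of 5.17, Zp3 of 4.94 and Zp1 of 2.33. Bmp15 had a median level of 0.0756 CPM per kb, and Oosp1 of 0. The ranges of Zp2 (2.65 to 137), Gdf9 (1.38 to 29.6), Zp3 (0.432 to 75.4) and Zp1 (0.0702 to 30.0) overlapped over the libraries. Within libraries, Zp2 was above Gdf9 in 7 of 8 and Zp3 above Zp1 in 8 of 8, whereas Gdf9 was above Zp3 in 2 of 8 despite the order of their medians. Zp2 had the highest level per kb in 7 of the 8 libraries. In mito-supplemented replicate 1 the level of Gdf9 was higher, at 7.72 CPM per kb, than that of Zp2, at 6.09. The second highest was Zp3 in 6 libraries, Gdf9 in control replicate 3 and Zp2 in mito-supplemented replicate 1.

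Zona counts per Gdf9 count compare the genes within a library, without any normalisation between libraries. Zp2 counts per Gdf9 count were 6.23, 5.81, 2.57 and 8.01 in controls and 1.06, 6.02, 6.08 and 3.28 in mito-supplemented samples. For Zp3 the ratios were 1.66, 2.68, 0.204 and 2.72 in controls and 0.0743, 1.05, 1.41 and 0.688 in mito-supplemented samples. The ratios of Zp1 were 0.991, 1.41, 0.286 and 2.12 in controls and 0.108, 1.23, 0.767 and 0.0183 in mito-supplemented samples. All 3 ratios were low in control replicate 3 and mito-supplemented replicate 1, that of Zp1 was lowest in mito-supplemented replicate 4, and the groups overlapped for each. Median ratios in controls and mito-supplemented samples were 6.02 and 4.65 for Zp2, 2.17 and 0.869 for Zp3, and 1.20 and 0.438 for Zp1. For Zp3 the interval of mito-supplemented replicate 1 (0.0469 to 0.113) lay below that of each library other than control replicate 3 (0.0922 to 0.408).

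**Figure D3:**
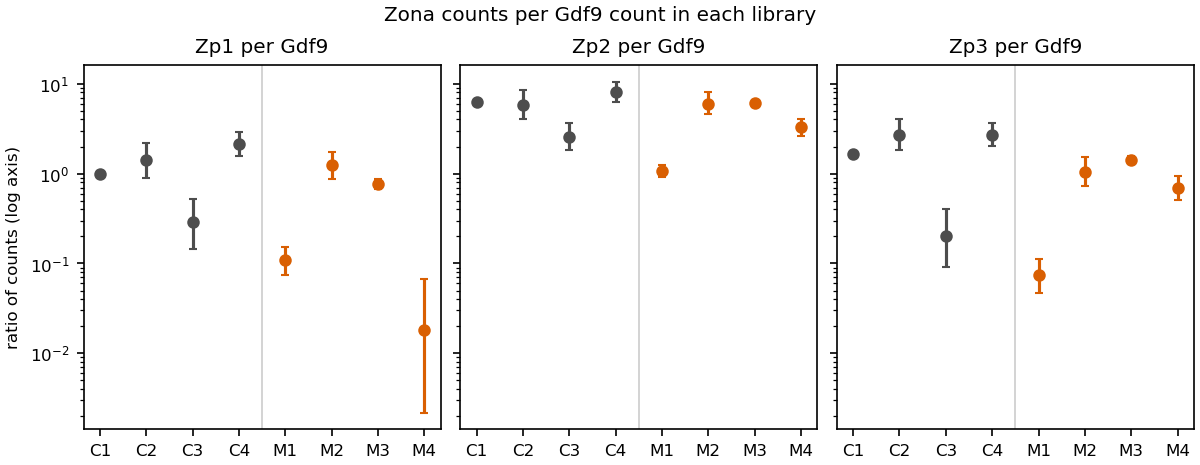
Counts of Zp1, Zp2 and Zp3 per Gdf9 count in each library (log axis; C1 to C4 controls, M1 to M4 mito-supplemented), with 95% Clopper-Pearson intervals for counting error only. Control replicate 3 and mito-supplemented replicate 1 were low for each gene, at 2.57 and 1.06 for Zp2, and Zp1 was also low in mito-supplemented replicate 4, at 0.0183.

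Germ cell content was followed with a list of pan-germ cell genes, which mark germ cells at many stages. Of 9 genes listed, 8 were in the count table and all 8 were tested. Their summed level was 1714, 149, 105 and 333 CPM in controls and 223, 103, 265 and 60.9 CPM in mito-supplemented samples. Control replicate 1 was the highest library here as well. Ddx4, a germ cell RNA helicase that defines the list, had 58 to 1739 counts per library. The most abundant genes were Kit, the receptor for Kit ligand, and Cpeb1, a regulator of translation. All 8 genes were lower in mito-supplemented samples, with a median log2 fold change of -1.81 against -0.10 for all genes tested, and 0 passed the quasi-likelihood test of edgeR. At an unadjusted p under 0.05 there were 2, Kit and Cpeb1, beside 7.71% of all genes tested, and the likelihood ratio test and DESeq2 called 0. The median was -0.04 without control replicate 1, with 4 of 8 genes higher.

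The summed level of the 6 genes was 603, 32.3, 11.4 and 186 CPM in controls and 35.3, 40.7, 234 and 37.8 CPM in mito-supplemented samples, a range of 52.9-fold. Set against the pan-germ cell list, this was 35.2, 21.7, 10.9 and 55.9 CPM per 100 CPM of germ cell genes in controls. In mito-supplemented samples it was 15.9, 39.3, 88.3 and 62.0 per 100. The range was 8.10-fold on this scale, the groups overlapped, and mito-supplemented replicate 3 took the place of control replicate 1 as the highest library. The medians were 28.4 in controls and 50.6 in mito-supplemented samples, whereas those of the summed level itself were 109 and 39.2 CPM. Kit contributed 629, 91.65, 45.4 and 92.0 CPM to the germ cell sum in controls. In mito-supplemented samples it contributed 74.7, 30.75, 84.7 and 16.2 CPM. Its part was largest in control replicate 2, at 91.65 of 149 CPM, and the scale without Kit was not computed. Zp2 counts per Ddx4 count were 5.24, 2.01, 0.600 and 9.40 in controls and 0.690, 2.54, 7.63 and 3.16 in mito-supplemented samples. Gdf9 counts per Ddx4 count were 0.841, 0.346, 0.233 and 1.17 in controls and 0.651, 0.423, 1.25 and 0.965 in mito-supplemented samples. The groups overlapped for both ratios, over a range of 15.7-fold for Zp2 and 5.36-fold for Gdf9. Median ratios per Ddx4 count in controls and mito-supplemented samples were 3.62 and 2.85 for Zp2, and 0.593 and 0.808 for Gdf9. For Zp3 they were 1.16 and 0.554, and for Zp1 0.66 and 0.296. The direction of the medians thus depended on the gene and on the germ cell measure. With the mean log2 CPM of the pan-germ cell list as a covariate, the log2 fold changes were -0.18 for Zp1, 0.90 for Zp2, 0.17 for Zp3 and 1.30 for Gdf9, and none passed the test.

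**Figure D4:**
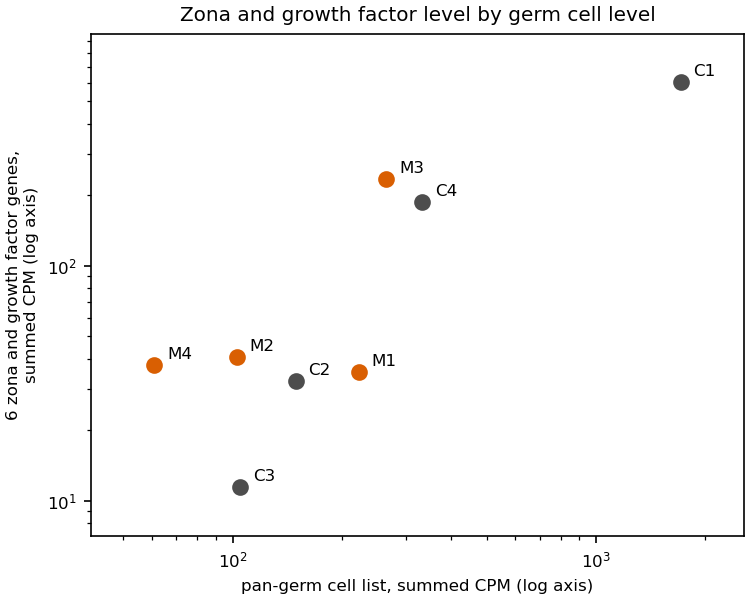
Summed CPM of the 6 zona and growth factor genes against summed CPM of the pan-germ cell list, both on log axes, with 1 point per library (grey, controls C1 to C4; orange, mito-supplemented M1 to M4). Control replicate 1 lay at the top of both axes, at 603 and 1714 CPM, and control replicate 3 was the lowest for the 6 genes, at 11.4 CPM.

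The growing-oocyte list holds genes that oocytes express as they grow, among them maternal-effect genes. Of 23 genes listed, 20 were in the table and 14 were tested, and Zar1l had 0 counts in every library. The summed level was 2904, 99.2, 139 and 564 CPM in controls and 177, 191, 691 and 115 CPM in mito-supplemented samples. The highest was control replicate 1, followed by mito-supplemented replicate 3 and control replicate 4, the same 3 libraries that led for the zona genes. All 14 genes tested were lower in mito-supplemented samples, with a median log2 fold change of -1.46 against -0.10 for all genes tested, and 0 passed the quasi-likelihood test of edgeR. At an unadjusted p under 0.05 there was 1, beside 7.71% of all genes tested, and the likelihood ratio test called 0. DESeq2 also called 0, but it gave no adjusted p for that gene and some others of the list. Without control replicate 1 the median was 0.21, with 10 of 14 higher. Nlrp5, a component of the subcortical maternal complex and the most abundant gene of the list, was at 428 ± 647 CPM in controls against 96.2 ± 102 CPM in the mito-supplemented group (SD, n = 4 each). Padi6, of the cytoplasmic lattices, was at 148 ± 215 CPM and 47.1 ± 50.8 CPM in the same groups. The control means without replicate 1 were 106 CPM for Nlrp5 and 42.4 CPM for Padi6.

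Among transcription factors of the early oocyte, 7 of 7 listed genes were tested and all 7 were lower in mito-supplemented samples. In the quasi-likelihood test of edgeR 0 passed, at an unadjusted p under 0.05 as well, and the other tools called 0. DESeq2 gave no adjusted p for some of the 7 genes, Figla among them. The median log2 fold change was -1.82 against -0.10 for all genes tested, and without control replicate 1 it was 0.33 with 5 of 7 higher. Figla was at 96.0, 2.54, 3.89 and 2.37 CPM in controls and at 8.98, 6.51, 11.7 and 2.64 CPM in mito-supplemented samples. Control replicate 4, in which Zp2 was at 108 CPM, had the lowest level of Figla, from 12 counts. Zp2 counts per Figla count were accordingly highest there, at 45.4 (95% Clopper-Pearson interval 25.8 to 88.3), against 1.85 to 13.1 in the other 7 libraries. Nobox was at 257, 5.63, 9.61 and 57.2 CPM in controls and at 35.5, 17.3, 56.5 and 8.90 CPM in mito-supplemented samples. Lhx8 was at 124, 3.49, 5.83 and 35.7 CPM in controls and at 18.6, 6.995, 18.2 and 0.556 CPM in mito-supplemented samples. Sohlh1, a germ cell factor upstream of Lhx8, ranged from 1.74 to 44.8 CPM in controls and from 0.0695 to 8.12 CPM in mito-supplemented samples. Mito-supplemented replicate 4 was the lowest library for Lhx8 and Sohlh1, with 8 counts of Lhx8, as it was for Zp1, while its Zp2 level of 24.8 CPM was close to that of replicate 2. The log2 fold changes were -1.82 for Figla, -1.48 for Nobox, -1.93 for Lhx8 and -1.80 for Sohlh1, with adjusted p from 0.697 to 0.728 in edgeR's quasi-likelihood test. Without replicate 1 the control means were 2.93 CPM for Figla, 24.2 for Nobox, 15 for Lhx8 and 4.09 for Sohlh1. The mito-supplemented means of these genes were 7.45, 29.55, 11.09 and 4.09 CPM.

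Genes for the processing, receptors and SMAD proteins of GDF9 and BMP15 signalling were detected in all samples. These bulk samples do not show which cells expressed them. Of 11 genes for processing, receptors and SMAD proteins, 11 were tested, 9 had a positive and 2 a negative log2 fold change. In the quasi-likelihood test of edgeR 0 passed, and the other tools called 0. An unadjusted p under 0.05 was found for 1 (Smad6), beside 7.71% of all genes tested. The median log2 fold change was 0.20 against -0.10 for all genes tested. The median ranged, on leaving out single libraries, from 0.07 without control replicate 2 (6 of 11 higher) to 0.57 without control replicate 1 (11 of 11 higher). The summed level was 790, 271, 381 and 832 CPM in controls and 384, 728, 923 and 755 CPM in mito-supplemented samples, a narrower range than that of the ligand genes. Bmpr2, the type II receptor for both ligands and the most abundant gene of the list, was at 121 ± 79.8 CPM in controls against 184 ± 81.8 CPM in the mito-supplemented group (SD, n = 4 each). Tgfbr1, the type I receptor used by GDF9, was at 71.9 ± 47.9 CPM and 52.9 ± 21.4 CPM, and Bmpr1b, the type I receptor used by BMP15, at 20.2 ± 14.2 CPM and 22.3 ± 9.27 CPM. The control mean of Tgfbr1 without replicate 1 was 49.1 CPM. Furin, a proprotein convertase, was at 21.6 ± 6.44 CPM and 24.7 ± 1.47 CPM. Smad3, which transmits GDF9 signals, was at 113 ± 92.8 CPM and 141 ± 56.4 CPM. The groups overlapped for these 5 genes. Smad6, an inhibitory SMAD named after its values were seen, had 9, 17, 11 and 5 counts in controls and 71, 71, 46 and 48 counts in mito-supplemented samples. Its groups did not overlap in CPM, as was so for 5.03% of all genes tested. The log2 fold change of Smad6 was 2.06, with an adjusted p of 0.626 in edgeR's quasi-likelihood test.

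Genes known to respond to GDF9 or BMP15 in granulosa and cumulus cells formed a list of 9, of which 6 were tested. Of these, 4 had a positive and 2 a negative log2 fold change, with a median log2 fold change of 0.24. In the quasi-likelihood test of edgeR 0 passed. There 1 (Ptgs2) had an unadjusted p under 0.05, beside 7.71% of all genes tested. The other tools called it, among 58 genes (0.418%) in the likelihood ratio test and 141 of 13873 in DESeq2. The median was 0.58 without control replicate 1, but -0.19 without control replicate 2 and -0.14 without control replicate 3, with 3 of 7 higher in both. The most abundant were Inhbb, an inhibin and activin subunit, at 21.3 ± 17.2 CPM in controls against 17.9 ± 11.9 CPM in the mito-supplemented group, and Id2, at 15.0 ± 9.61 and 15.7 ± 13.2 CPM (SD, n = 4 each). Ptgs2, the inducible cyclooxygenase, had 1, 15, 9 and 0 counts in controls and 154, 35, 197 and 303 counts in mito-supplemented samples. Each mito-supplemented library lay above each control, and groups did not overlap for 5.03% of all genes tested. The log2 fold change of Ptgs2 was 4.44, with an adjusted p of 0.544 in edgeR's quasi-likelihood test, of 0.0387 in edgeR's likelihood ratio test and of 0.00597 in DESeq2. Ptx3, Tnfaip6 and Grem1 did not pass the filter.

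**Figure D5:**
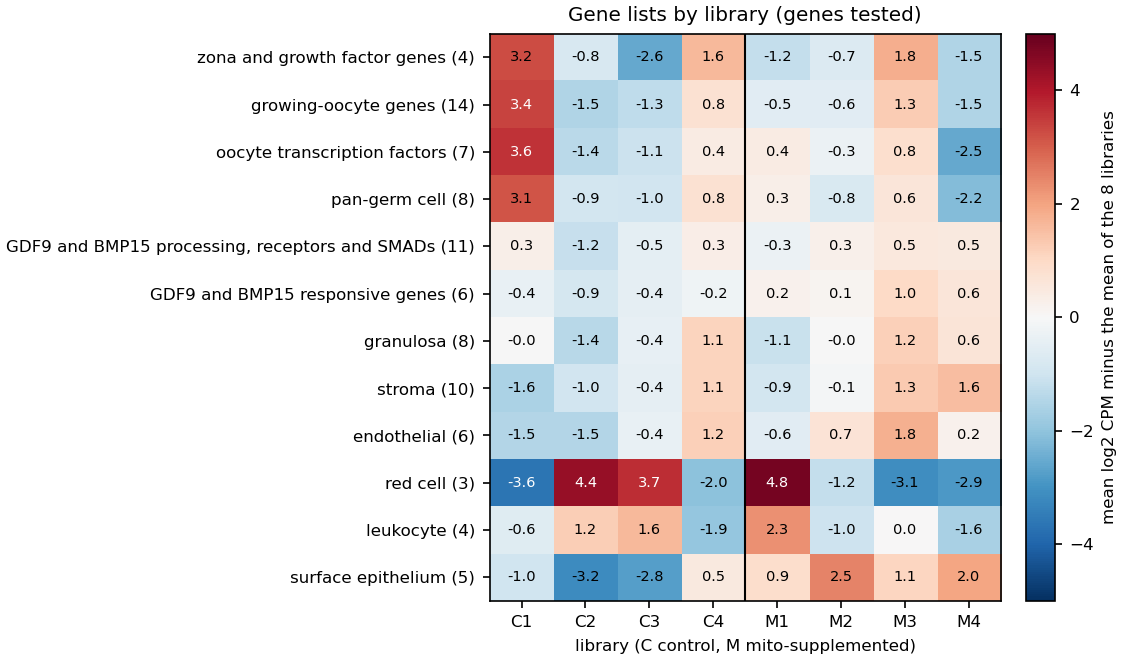
Mean log2 CPM of each gene list in each library, as the difference from the mean of that list over the 8 libraries (colour and printed value; number of genes tested in brackets). Control replicate 1 was the highest library for the 4 zona and growth factor genes tested and for the 3 oocyte and germ cell lists, and the red cell list was high in control replicates 2 and 3 and mito-supplemented replicate 1.

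Markers of other ovarian cells differed between libraries as well. Granulosa genes summed to 223, 128, 225 and 618 CPM in controls and 219, 587, 541 and 754 CPM in mito-supplemented samples. Of 11 listed, 8 were tested, 6 were higher and 2 lower, with a median log2 fold change of 0.49. The most abundant were Wt1, at 137 ± 131 CPM in controls against 355 ± 205 CPM in the mito-supplemented group, and Kitl, at 67.0 ± 39.7 and 50.7 ± 22.2 CPM (SD, n = 4 each). Stromal genes summed to 341, 466, 676 and 2258 CPM in controls and 974, 1015, 2546 and 2342 CPM in mito-supplemented samples. All 10 were tested and all 10 were higher, with a median log2 fold change of 0.84, and Col3a1 and Col1a1 were the most abundant. Control replicate 1, the highest library for the zona genes, was thus the lowest for the stromal sum. Mito-supplemented replicate 3 and control replicate 4, which followed it for the zona genes, had high stromal sums of 2546 and 2258 CPM. The surface epithelium list summed to 47.8, 18.2, 15.7 and 201 CPM in controls and 176, 517, 190 and 353 CPM in mito-supplemented samples, with 5 of 5 genes higher and a median of 2.02. Upk3b and Muc16 were its most abundant genes. Upk1b passed the likelihood ratio test of edgeR (adjusted p = 0.00085), as did 0.418% of all genes tested. Endothelial genes had 6 of 7 tested, 5 of them higher, with a median of 1.10. Their sum was 25.7, 27.8, 42.9 and 212 CPM in controls and 94.9, 226, 180 and 201 CPM in mito-supplemented samples. Kdr and Cdh5 were the most abundant, and Esam passed the likelihood ratio test of edgeR (adjusted p = 0.0123). On leaving out single libraries, these medians were highest without control replicate 4, at 0.77 for granulosa, 1.78 for stromal, 3.63 for surface epithelium and 1.78 for endothelial genes. The lowest were 0.14 for granulosa (4 of 8 higher) and 0.43 for endothelial genes without mito-supplemented replicate 3, 0.47 for stromal genes without replicate 4 of that group, and 1.67 for the surface epithelium without control replicate 2.

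Red cell and leukocyte markers followed another division of the libraries. The red cell list summed to 13.4, 3617, 2401 and 41.5 CPM in controls and 4530, 72.9, 20.1 and 19.2 CPM in mito-supplemented samples. It was high in control replicates 2 and 3 and mito-supplemented replicate 1, where the 6 zona and growth factor genes summed to 32.3, 11.4 and 35.3 CPM. In mito-supplemented replicates 2 and 4, where the red cell sum was low, the 6 genes summed to 40.7 and 37.8 CPM. Of 7 red cell genes listed, 5 were in the table and 3 tested. Slc4a1 was the most abundant, and the globin gene Hba-a1 had 0 counts in 7 of the 8 libraries. Another globin gene, Hba-a2, had 125 counts in total and 0 counts in 1 library. Leukocyte genes summed to 8.25, 36.2, 47.0 and 3.16 CPM in controls and 117, 9.42, 12.7 and 6.54 CPM in mito-supplemented samples. They were high in the same 3 libraries, and of 6 listed, 4 were tested and 4 were higher, with a median log2 fold change of 0.49 and Ptprc and Tyrobp the most abundant. The leukocyte median was -1.04 without mito-supplemented replicate 1 and -0.85 with the replicate block, with 2 of 4 higher in both. In the quasi-likelihood test of edgeR 0 genes of these 6 lists of other cells passed. An unadjusted p under 0.05 was found for 4 surface epithelium genes and 1 endothelial gene, beside 7.71% of all genes tested. The likelihood ratio test and DESeq2 called Upk1b and Esam, among 58 (0.418%) and 141 of the 13873 genes tested. The part of any of these cell types in the levels of the zona and growth factor genes was not tested.

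Genes with profiles most like the zona and growth factor genes were ranked by the root mean square difference of centred log2 CPM over the 8 libraries, among 8046 genes with a mean of at least 10 CPM. The 10 genes nearest to the mean profile of the 4 members tested were Padi6 (0.524), Nlrp14 (0.545), Gm17821 (0.565), C86187 (0.693), Adam12 (0.721), Pde3a (0.721), Tex14 (0.791), Col6a5 (0.805), Dnahc11 (0.815) and 9230115E21Rik (0.822). The median difference of the candidates from this mean profile was 1.99. Their median difference from a single member was 2.59 for Zp1, 2.42 for Zp3 and 1.93 for Zp2. Padi6, Nlrp14 and Pde3a belong to the growing-oocyte list. The 3 genes nearest to Zp2 were Padi6 (0.549), Adam12 (0.573) and Nlrp14 (0.574), and those nearest to Gdf9 were Pramef12 (0.536), Mael (0.583) and Adam12 (0.599). Nearest to Zp3 were Gm17821 (1.08), Gm15698 (1.12) and Cacna2d2 (1.17), and nearest to Zp1 were Sycp2l (0.819), Iqca (0.859) and Gm19484 (0.864). Between the members the same difference was 0.82 for Zp2 and Zp3, 0.90 for Zp2 and Gdf9, 1.40 for Zp1 and Zp2, 1.46 for Zp1 and Zp3, 1.65 for Zp3 and Gdf9, and 1.92 for Zp1 and Gdf9. The differences from Zp1 include mito-supplemented replicate 4, with 2 counts of Zp1. Without that library, a choice made after seeing the data, the difference was 0.475 for Zp1 and Zp2, 0.575 for Zp1 and Zp3, and 0.953 for Zp2 and Gdf9. Without mito-supplemented replicate 1, chosen in the same way, it was 0.547 for Zp2 and Gdf9, 0.674 for Zp2 and Zp3 and 1.14 for Zp3 and Gdf9, so that the member nearest to Zp2 depended on the library left out.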

How the data were processed

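RNA was amplified and libraries were prepared with the Trio RNA-Seq kit. The authors trimmed reads with Trim Galore 0.4.4, mapped them to GRCm38 (mm10) with STAR 2.5.3a and counted reads over exons with featureCounts, and the deposited values are raw counts for each gene symbol. The release of the annotation, the use of strand and the treatment of multi-mapping reads are not given in the sources used here. The authors left out 1 control library, which was not analysed here. Total counts per library ranged from 10370045 to 19760763.

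Counts were normalised by TMM in edgeR 4.0.16 (R 4.3.3), genes were kept by edgeR's default expression filter, and all 13873 genes kept were fitted with the quasi-likelihood test between 4 mito-supplemented and 4 control samples. Genes were called at a Benjamini-Hochberg adjusted p under 0.05 and a 2-fold difference. Log2 CPM used a prior count of 2. The alternatives were the likelihood ratio test, DESeq2 1.42.0, other normalisations and filters, a replicate block, counts summed by label prefix, a pan-germ cell covariate and each library left out in turn. The functions were tested on simulated counts. Counts of no pair of libraries agreed within sampling noise (chi-square per degree of freedom at least 50).

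Genes named were the 6 members, the 2 most abundant genes of each list, listed genes that were called or at 0, 8 transcription factor and pathway genes, and the genes nearest in profile. A gene that this rule takes is not reported here. Outside the rule, Ddx4 was named as a germ cell marker, and Ptx3, Tnfaip6, Grem1, Hba-a1 and Hba-a2 for their low counts. The members and lists were chosen with earlier results of these data known. Symbols were matched to GENCODE M21 for coordinates and exon lengths, and no annotated gene overlapped a member.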

Additional observations from a re-analysis of the deposited data

Results flagged for a closer look

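Mito-supplemented replicate 3 had a TMM factor of 1.37, apart from the rest of its group, which had factors of 1.05 to 1.09. It was 1 of 58 groups of 4 libraries examined, where chance gives about 2.9. The same library had the highest zona levels of its group, with Zp2 at 153 CPM. Without it the log2 fold change of Zp2 was -2.47. The cause was not tested.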

How the results depend on the processing

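With the quasi-likelihood test, 0 differentially expressed genes were called under each other normalisation, filter, block or covariate and with each library left out in turn, whereas the likelihood ratio test called 58 and DESeq2 141. None of Zp1, Zp2, Zp3 and Gdf9 was called under any of the 19 alternatives, and their adjusted p ranged from 0.608 to 0.985. Zp1 was lower in mito-supplemented samples in all 19. The log2 fold changes changed sign with the pan-germ cell covariate for Zp2 (0.90), Zp3 (0.17) and Gdf9 (1.30). With each library left out in turn, they ranged from -3.28 to -0.71 for Zp1, from -2.47 to 0.36 for Zp2, from -3.29 to -0.33 for Zp3 and from -1.08 to 1.09 for Gdf9, in each case lowest without mito-supplemented replicate 3 and highest without control replicate 1. The cause was not tested. Replicate numbers gave no sign of marking pairs, as the deviations of samples sharing a number correlated at -0.24, -0.19, -0.33 and 0.22. Samples with different numbers were not compared, so these values cannot exclude pairing. With the replicate block the log2 fold changes were -2.20 for Zp1, -0.66 for Zp2, -1.72 for Zp3 and 0.10 for Gdf9, and the count of genes was 0. With library size only as the scaling, the median of all genes tested moved from -0.10 to 0.17, and the medians of the oocyte and germ cell lists stayed negative (-1.38, -1.91 and -1.85 for growing-oocyte genes, transcription factors and pan-germ cell genes). With the replicate block these medians were -0.95 (3 of 14 higher), -0.74 (2 of 7) and -1.09 (0 of 8). With the pan-germ cell covariate they were 0.48 (11 of 14 higher), 0.31 (4 of 7) and -0.09 (3 of 8). The last of these values tests nothing, as the covariate was the mean of that list itself. With library size only, the granulosa median rose to 0.96 (8 of 8 higher) and that of receptors and SMAD proteins to 0.475. The stromal, endothelial and surface epithelium medians rose to 1.57, 1.82 and 2.71. With library size only and the rRNA rows left out, the granulosa and receptor medians were 0.616 and 0.309. Those of stromal, endothelial and surface epithelium genes were then 0.986, 1.18 and 2.01, and the median of all genes tested was -0.02. With the replicate block the granulosa, stromal, endothelial and surface epithelium medians were 0.24, 0.96, 0.86 and 2.66. With counts summed by code they were 0.34, 1.55, 1.35 and 2.69. Bmp15 and Oosp1 had too few counts for the default filter, and few counts limit Zp1 in mito-supplemented replicate 4 and Figla in control replicate 4. Control replicate 4 was the shallowest library outside the rRNA rows.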
